A study of Homo sapiens with 57 samples.

Results

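The extract of Yinyanghuo (the herb Epimedium brevicornu Maxim) was compared with the DMSO wells assayed in its own set. The comparison took every well that the labels assign to that set, which gave 19 of the 57 wells in the series: 3 wells that received the extract at 100 μg/mL and 16 wells that received 0.5% DMSO, the solvent control. All wells held HK-2 cells, an immortalised epithelial line from the proximal tubule of a human kidney, seeded at 3000 cells per well in 384-well plates and treated for 24 h. The labels do not say whether the extract wells also held DMSO, nor whether the wells of a group came from separate cultures, so p-values measure the spread between wells. The readout was RASL-seq, in which pairs of probes that anneal next to each other on an mRNA are ligated and sequenced, and each value was a read count per gene. Of 412 genes on the panel, 400 had at least 1 read in these 19 wells and 214 had a mean count of at least 5, and the results below describe those 214 unless stated otherwise.

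The panel was built around genes of inflammation, cell adhesion, hormone signalling, cell survival and related pathways. Tubular epithelial cells are a source of cytokines such as interleukin 6, they lay down and anchor to matrix proteins such as fibronectin through integrins and the actin cytoskeleton, and they induce haem oxygenase and thioredoxin when exposed to oxidants or electrophiles. Cyclin-dependent kinase inhibitors, among them CDKN1A, a target gene of p53, hold cells before division.

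The 3 extract wells yielded 21916, 13581 and 35307 reads (wells 1, 2 and 3), and the DMSO wells 19690 to 40863. Well 2 was thus the shallowest of the 19 wells. Values are given below as CPM (reads of a gene per 1e6 reads of the well) after TMM scaling, a correction that aims to centre the fold changes of most genes. Levels of different genes are not compared, because probe pairs can differ in efficiency. Counts are relative within a well, so a change in the number of cells and a change in RNA per cell cannot be told apart. HNF4A, the 1 proximal tubule marker on the panel, had at most 1 read in any well, so the cell type could not be checked from these counts. Leukocyte markers (8 on the panel) summed to 494 to 952 CPM in the extract wells and 164 to 976 CPM in the DMSO wells, with 5 of the 8 at no more than 3 reads in every well. The 2 endothelial markers summed to 143 to 1059 CPM and 153 to 1109 CPM, and the fibroblast marker COL1A2 had at most 1 read.

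With Yinyanghuo, interleukin 6, CXCL2, haem oxygenase 1, thioredoxin and CDKN1A were higher, while fibronectin, versican, integrin αV and caveolin 1 were lower. Among the 214 genes, 8 were higher and 19 lower at an edgeR adjusted p under 0.05, where 10 (2.5%) of all 400 genes tested were called higher and 20 (5%) lower. For all 27, the 3 extract wells lay together above or together below the median DMSO well. For 17 of them the extract and DMSO wells did not overlap at all: 5 lay above every DMSO well (1.25% of the genes tested) and 12 below (3%). A looser rule, an unadjusted p under 0.05 with a fold above 1.5 or below 0.67, called 43 of the 214 genes, 17 higher and 26 lower, against 31 (7.75%) and 29 (7.25%) of all 400 genes tested. With RLE scaling the looser rule called 26 higher and 22 lower, since that scaling raised the log2 fold changes of the 214 genes by a median of 0.09. Their median log2 fold change was -0.08 with TMM, -0.08 with total counts alone and 0.02 with RLE.

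**Figure D1:**
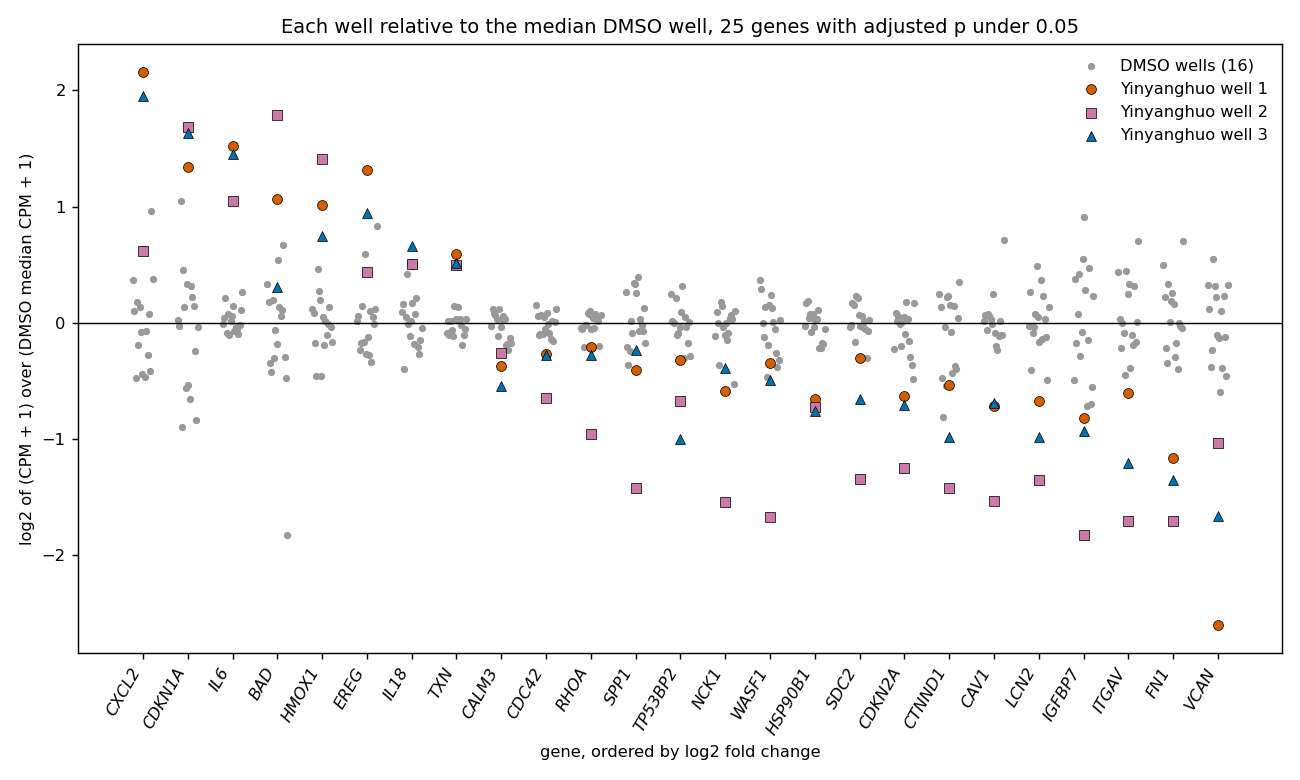
Each point is 1 well, placed by the log2 ratio of its CPM plus 1 to the median DMSO CPM plus 1, for 25 of the 27 genes with an edgeR adjusted p under 0.05. Coloured symbols are the 3 extract wells and grey points the 16 DMSO wells. For 16 genes every coloured symbol lies outside the grey points, and well 2 is the farthest in the direction of change for 16 of the 25.

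Over the 214 genes, the called ones included, all 3 extract wells lay above the DMSO median for 31 and below it for 58, and the other 125 were not on one side. Over all 400 genes tested, these counts were 45 above (11.2%) and 66 below (16.5%). The log2 SD of the 3 extract wells exceeded that of the 16 DMSO wells for 146 of the 214. Well 2 lay outside the DMSO range for 98 of the 214 genes (31 above, 67 below), well 1 for 72 (34 above, 38 below) and well 3 for 53 (19 above, 34 below). Well 2 was the only well outside the range for 50 genes, against 23 for well 1 and 9 for well 3. Its part in the gene calls is given beside each gene whose call rested on it. Some genes high in extract well 2 were also high in DMSO well 14. JAK2 had 10450 CPM in extract well 2 and 11003 CPM in DMSO well 14, PPARGC1A 23795 and 15351, and SOCS5 3530 and 2041. KAT2B, at 4943 and 5590 CPM, VEGFA, at 10026 and 11181 CPM, and IL23A, at 22030 and 12423 CPM, were further examples. HMOX1, at 10097 and 4171 CPM, was not shared in this way. The genes named are examples, and how many were shared was not counted.

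**Figure D2:**
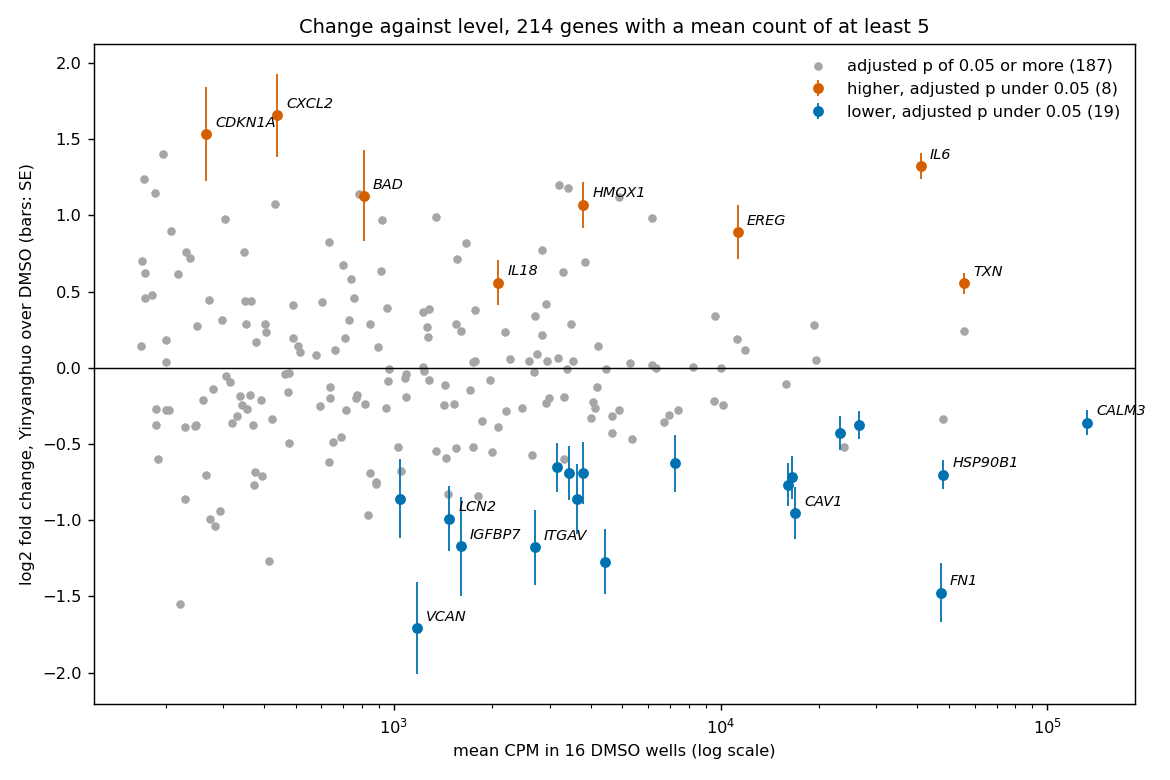
Log2 fold change (y axis, bars show SE) against mean CPM in the 16 DMSO wells (x axis, log scale) for the 214 genes. The 8 genes called higher (orange) and the 19 called lower (blue) spanned the range of levels, from CDKN1A at a DMSO mean of 267 CPM to CALM3 at 132896 CPM.

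Among secreted cytokines, chemokines and acute-phase proteins, 7 of 30 panel genes reached a mean count of 5. IL6, CXCL2 and IL18 rose, LCN2 fell, and IL23A, LIF and TGFB1 were not called. The median log2 fold change of the 7 was 0.56, against -0.08 for all 214 genes. Of the 214 genes, 3.74% were called higher and 8.88% lower, and no list here or below was tested as a set. IL6, the cytokine that drives the acute-phase response, had 115024, 83177 and 110164 CPM in wells 1, 2 and 3, against 37206 to 48297 CPM (median 40156) in the DMSO wells. Even the lowest extract well was therefore above the highest DMSO well. The rise was 2.51-fold (log2 fold change 1.33 ± 0.08 (SE), edgeR adjusted p = 3.65e-12). IL6 took 11.03%, 8.67% and 11.07% of the reads of the 3 wells (95% Wilson intervals 10.6 to 11.5%, 8.21 to 9.16% and 10.7 to 11.4%), against 3.77 to 4.77% in the DMSO wells. These intervals cover counting error only.

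CXCL2, a chemokine that attracts neutrophils, had 1856, 635 and 1606 CPM, against 297 to 809 CPM (median 414). Wells 1 and 3 were above every DMSO well and well 2 was inside their range. The difference was 3.15-fold (log2 fold change 1.66 ± 0.27 (SE), edgeR adjusted p = 0.000136). IL18, a cytokine of the interleukin 1 family, had 2951, 2966 and 3297 CPM, against 1582 to 2783 CPM (median 2083). All 3 wells were above the DMSO wells (log2 fold change 0.56 ± 0.15 (SE), edgeR adjusted p = 0.014), although without well 3 the adjusted p was 0.0998. LCN2, an iron-binding protein released by injured tubules, moved the other way, with 904, 565 and 733 CPM against 1030 to 2033 CPM (median 1447). Every extract well was below every DMSO well (log2 fold change -0.99 ± 0.22 (SE), edgeR adjusted p = 0.00282). IL23A, a subunit of interleukin 23, had 3617, 22030 and 6538 CPM against 1700 to 12506 CPM (median 3724). Only well 2 was above every DMSO well, and the edgeR adjusted p was 0.13.

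A pair of further chemokine genes was called below the mean count of 5, and both are named for that reason. CXCL8, interleukin 8, had 5, 12 and 11 reads against 0 to 7 (median 1) in the DMSO wells (log2 fold change 2.81 ± 0.69 (SE), edgeR adjusted p = 0.00879). CXCL1 had 9, 2 and 20 reads against 0 to 8 (median 3) (log2 fold change 1.89 ± 0.52 (SE), edgeR adjusted p = 0.019). At these counts a single read moves the value noticeably, and the calls were unstable: without wells 1, 2 and 3 the adjusted p was 0.01, 0.14 and 0.0201 for CXCL8 and 0.0651, 0.0118 and 0.218 for CXCL1. CXCL1 and CXCL2 are close paralogs, and how far their probes separate them was not tested. The third gene called below a mean count of 5 was RASA1, a negative regulator of RAS, with no read in any extract well against 0 to 8 (median 4.5) reads. Set against a limit of 3 reads over the 3 wells together, its level was at least 3.46-fold lower (edgeR adjusted p = 0.0163, and 0.0496, 0.0508 and 0.0986 without wells 1, 2 and 3).

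The promoters of IL6 and of the 3 chemokine genes called higher are shown because each holds a match to one motif near its start. The 120 bases before the annotated start are given on the strand of the gene, from RefSeq (GRCh38.p14), at chr7:22727080-22727199 (plus strand) for IL6, chr4:74099196-74099315 (minus strand) for CXCL2, chr4:73740449-73740568 (plus strand) for CXCL8 and chr4:73869273-73869392 (plus strand) for CXCL1. Capitals mark matches to GGNNTTTCC, one form of the site bound by NF-κB, a transcription factor of inflammation.
IL6: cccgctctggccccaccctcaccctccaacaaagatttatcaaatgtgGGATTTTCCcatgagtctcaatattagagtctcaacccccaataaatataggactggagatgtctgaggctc
CXCL2: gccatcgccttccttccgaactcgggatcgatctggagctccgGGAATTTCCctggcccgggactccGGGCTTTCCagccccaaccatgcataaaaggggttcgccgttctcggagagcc
CXCL8: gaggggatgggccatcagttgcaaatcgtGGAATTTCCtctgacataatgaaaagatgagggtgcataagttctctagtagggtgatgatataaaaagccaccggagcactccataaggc
CXCL1: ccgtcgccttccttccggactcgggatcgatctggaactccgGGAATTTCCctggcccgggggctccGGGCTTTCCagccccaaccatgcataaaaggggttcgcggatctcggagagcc
The match begins 72 bases before the start in IL6 and 91 bases before it in CXCL8. CXCL2 holds 2 matches, beginning 77 and 53 bases before the start, and CXCL1 also holds 2, at 78 and 53 bases. Laid side by side without gaps, the CXCL1 and CXCL2 stretches were identical at 81 of 120 positions, so their matches are not independent of each other. Searched on both strands over 250 bases before to 50 bases after the start, GGNNTTTCC was found in 9.75% of the 318 panel promoters in the RefSeq table and in 6.26% of all 35116 promoters there. It was in 15 (8.88%) of the 169 promoters listed for the 214 genes, called or not. Among these it occurred in 2 of the 6 listed for genes called higher, IL6 and CXCL2, and in 0 of the 14 listed for genes called lower. IL6 and CXCL2 are among the promoters shown for holding a match, so this count is not an independent description. TGANTCA, the site of AP-1 factors, was found in 0 of the 6 and in 1 of the 14 (LCN2), against 9.75% of panel promoters. TGACNNNGC, the core of the antioxidant response element, was found in 1 of the 6 (BAD) and in 1 of the 14 (NCK1), against 12.6%. HMOX1 and IL18, also called higher, had no promoter listed and were not searched for any of these motifs. A match of letters is a description of the sequence and does not show that a factor bound there.

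None of 8 cytokine receptors, signalling kinases and inhibitors described here was called, and their median log2 fold change was 0.18. JAK1, a kinase that cytokine receptors activate, had 3902, 4237 and 3946 CPM against 4103 to 5638 CPM (median 4906) (adjusted p = 0.187). SOCS5, an inhibitor of cytokine signalling, had 476, 3530 and 1550 CPM against 191 to 2041 CPM (median 930.3). It was high in well 2 and inside the DMSO range in the other wells (adjusted p = 0.233).

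Genes of haem, thioredoxin and superoxide metabolism included 6 with a mean count of at least 5, of which HMOX1 and TXN rose and none fell. HMOX1, which degrades haem, had 7662, 10097 and 6369 CPM against 2764 to 5240 CPM (median 3801). The extract wells lay above every DMSO well, and the rise was 2.10-fold (log2 fold change 1.07 ± 0.15 (SE), edgeR adjusted p = 1.28e-05). TXN, thioredoxin, a small protein that reduces disulphides, had 84852, 79576 and 80516 CPM against 49190 to 62305 CPM (median 56269). Its 3 wells were close together and above all DMSO wells, for a rise of 1.47-fold (log2 fold change 0.55 ± 0.07 (SE), edgeR adjusted p = 5.14e-06). TXNIP, which binds and inhibits thioredoxin, had 0, 353 and 113 CPM against 155 to 444 CPM (median 241). Its wells lay on both sides of the DMSO median (adjusted p = 0.3). SIRT1, a deacetylase, and SOD2, the mitochondrial superoxide dismutase, had log2 fold changes of 0.48 and 0.14 and were not called.

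Extracellular matrix genes were the list with the lowest median log2 fold change, -0.72. The lists were written with earlier results of these data known, so their ranking is a description only. Of the 9 among the 214 genes, FN1, VCAN, SDC2, IGFBP7 and SPP1 fell, none rose, and LAMB1, LAMC1, TNC and TIMP1 were not called. Over the 214 genes, 8.88% were called lower. Summed over the 14 matrix genes with reads, the extract wells had 30786 to 48970 CPM and the DMSO wells 67729 to 106754 CPM. This sum is weighted to the genes with the most reads, FN1 above all, so it does not show a fall across the list. The genes not called had log2 fold changes of 0.34 (LAMB1), 0.04 (TIMP1), -0.68 (LAMC1) and -0.77 (TNC). FN1, fibronectin, had 19845, 13628 and 17360 CPM against 33762 to 72458 CPM (median 44519). Every extract well was below every DMSO well, and the mean fell to 36% of the DMSO level (log2 fold change -1.48 ± 0.19 (SE), edgeR adjusted p = 5.14e-06). VCAN, the proteoglycan versican, had 190.4, 565 and 366 CPM against 766 to 1699 CPM (median 1161). It had the lowest fold change of the called genes among the 214, at 30.6% of the DMSO level (log2 fold change -1.71 ± 0.30 (SE), edgeR adjusted p = 0.000294), again with no overlap. The extract wells held only 4, 8 and 13 VCAN reads, against 18 to 57 in the DMSO wells, so the size of the fold is imprecise.

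SDC2, syndecan 2, a heparan sulphate proteoglycan of the cell surface, had 13278, 6425 and 10343 CPM against 13222 to 19202 CPM (median 16348). Well 1 was just inside the DMSO range and the other 2 wells were below it (log2 fold change -0.72 ± 0.14 (SE), edgeR adjusted p = 0.000997). IGFBP7, which binds insulin-like growth factors, had 857, 424 and 789 CPM against 917 to 2839 CPM (median 1510). The groups did not overlap (log2 fold change -1.17 ± 0.32 (SE), edgeR adjusted p = 0.019), but the adjusted p was 0.13 without well 2 and 0.0693 without well 3. SPP1, osteopontin, had 5282, 2613 and 5946 CPM against 5438 to 9159 CPM (median 6993). Its call rested on well 2 (log2 fold change -0.63 ± 0.18 (SE), edgeR adjusted p = 0.0305), since without that well the log2 fold change was -0.37 and the adjusted p 0.273.

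Of 20 integrin, adhesion and junction genes, ITGAV, CAV1 and CTNND1 fell and none rose, where 8.88% of the 214 genes were called lower. The median log2 fold change of the 20 was -0.05, close to that of all 214 genes. ITGAV, integrin αV, a receptor for fibronectin, had 1666, 777 and 1099 CPM against 1858 to 4121 CPM (median 2535). All 3 wells were below the DMSO wells, at 44.2% of their level (log2 fold change -1.18 ± 0.24 (SE), edgeR adjusted p = 0.00156). CAV1, the coat protein of caveolae, had 10089, 5719 and 10258 CPM against 14018 to 27079 CPM (median 16541). Its groups did not overlap either (log2 fold change -0.95 ± 0.17 (SE), edgeR adjusted p = 0.000294). CTNND1, a catenin that stabilises cadherins, had 2617, 1412 and 1916 CPM against 2156 to 4837 CPM (median 3793). Well 1 was inside the DMSO range (log2 fold change -0.86 ± 0.23 (SE), edgeR adjusted p = 0.0141), and the adjusted p was 0.121 without well 2 and 0.0818 without well 3. VIM, vimentin, an intermediate filament protein, had 19416, 8120 and 22010 CPM against 18440 to 27444 CPM (median 24134). It was low in well 2 and inside the DMSO range in the others (adjusted p = 0.0702, and 0.0361 with DESeq2).

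Among 13 genes of actin regulators and small GTPases, CDC42, RHOA, NCK1 and WASF1 fell, none rose, and the median log2 fold change was -0.37. CDC42, a small GTPase that directs cell polarity, had 22224, 17087 and 22095 CPM against 24048 to 29667 CPM (median 26752). The 3 wells were below all DMSO wells by a small margin (log2 fold change -0.37 ± 0.09 (SE), edgeR adjusted p = 0.00879). RHOA, the GTPase of stress fibres, had 20178, 12004 and 19248 CPM against 20170 to 24936 CPM (median 23272). Wells 2 and 3 were below the DMSO wells (log2 fold change -0.43 ± 0.11 (SE), edgeR adjusted p = 0.013). NCK1, an adaptor that links receptors to actin, had 2332, 1200 and 2677 CPM against 2428 to 3975 CPM (median 3510) (log2 fold change -0.69 ± 0.18 (SE), edgeR adjusted p = 0.013). WASF1, an activator of the actin nucleating complex, had 2998, 1200 and 2705 CPM against 2767 to 4932 CPM (median 3819) (log2 fold change -0.69 ± 0.20 (SE), edgeR adjusted p = 0.0309). For both, 2 wells were below the DMSO wells and 1 was inside their range. All 4 calls rested on well 2: without it the log2 fold changes were -0.26, -0.23, -0.45 and -0.42 for CDC42, RHOA, NCK1 and WASF1, and the adjusted p-values 0.0941, 0.151, 0.132 and 0.259. ROCK2, the kinase downstream of RHOA, was just outside the threshold, at 1285, 1271 and 1494 CPM against 1453 to 2440 CPM (median 1983) (adjusted p = 0.0518).

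**Figure D3:**
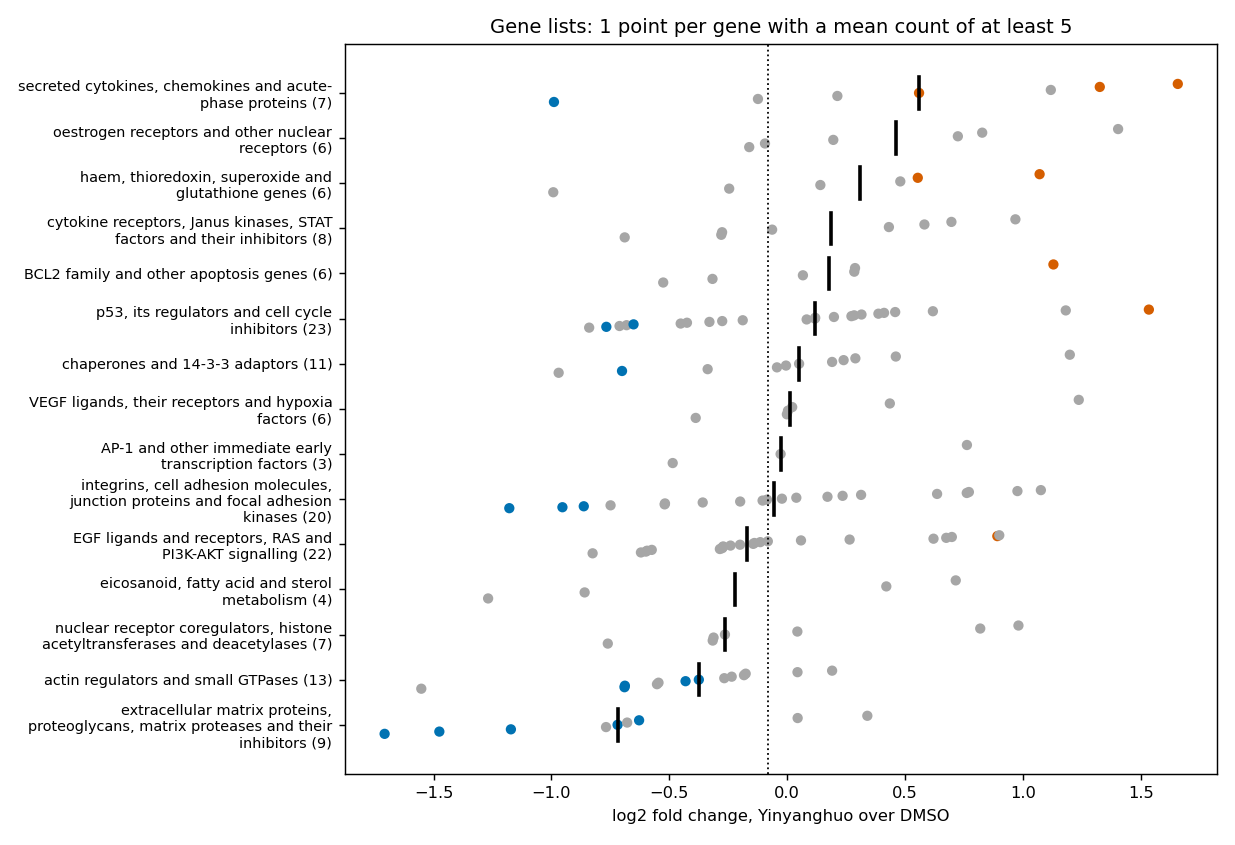
Each point is 1 of the 214 genes, placed by its log2 fold change (x axis), for the lists with at least 3 such genes (number in brackets). Orange points were called higher and blue points lower at an edgeR adjusted p under 0.05, grey points were not called, bars are list medians and the dotted line is the median of all 214 genes. The medians ran from -0.72 for the matrix list to 0.56 for the cytokine list. The lists were written with earlier results of these data known.

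Of 23 genes of p53, its regulators and the cell cycle, CDKN1A rose, CDKN2A and TP53BP2 fell, and 20 were not called. CDKN1A had 666, 847 and 817 CPM against 141 to 544 CPM (median 263). The extract wells were above every DMSO well, for a rise of 2.90-fold (log2 fold change 1.53 ± 0.31 (SE), edgeR adjusted p = 0.00127). In reads they had 14, 12 and 29 against 3 to 12. Well 2 thus equalled the highest DMSO count and lay above it only after scaling for depth. CDKN2A, the locus of another kinase inhibitor and of a stabiliser of p53, had 10850, 7061 and 10315 CPM against 12028 to 19018 CPM (median 16837). All 3 extract wells were below all DMSO wells (log2 fold change -0.77 ± 0.14 (SE), edgeR adjusted p = 0.000392). TP53BP2, a protein that binds p53 and favours apoptosis, had 2522, 1977 and 1578 CPM against 2555 to 3930 CPM (median 3152). It too did not overlap (log2 fold change -0.65 ± 0.16 (SE), edgeR adjusted p = 0.00879), with an adjusted p of 0.111 without well 3. PPP2R5C, a regulatory subunit of protein phosphatase 2A, had 26888, 20759 and 23053 CPM against 16807 to 23363 CPM (median 19113) (adjusted p = 0.0629), and was called with RLE scaling (adjusted p = 0.00301) and with DESeq2 (0.000146).

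In the BCL2 and apoptosis list, 1 of 6 genes was called. BAD, which promotes apoptosis by binding BCL2 relatives, had 1713, 2824 and 1015 CPM against 230.3 to 1305 CPM (median 818). Wells 1 and 2 were above the DMSO wells and well 3 was among them (log2 fold change 1.13 ± 0.30 (SE), edgeR adjusted p = 0.014), and without well 2 the log2 fold change was 0.72 (adjusted p = 0.273). BID and BBC3, which also promote apoptosis, had log2 fold changes of -0.53 ± 0.19 and -0.32 ± 0.18 (SE) and edgeR adjusted p-values of 0.0945 and 0.304. Of 22 EGF, RAS and PI3K genes, EREG rose and none fell. EREG, epiregulin, a ligand of the EGF receptor, had 27126, 14687 and 20996 CPM against 8611 to 19349 CPM (median 10877). Wells 1 and 3 were above every DMSO well and well 2 was inside their range (log2 fold change 0.89 ± 0.18 (SE), edgeR adjusted p = 0.00127). EGFR, the receptor, had 1856, 1412 and 1973 CPM against 1838 to 3311 CPM (median 2777), and was not called (adjusted p = 0.0781).

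Of 11 chaperone and 14-3-3 genes, HSP90B1 fell, none rose, and the median log2 fold change was 0.05. HSP90B1, the HSP90 chaperone of the endoplasmic reticulum, had 30790, 29232 and 28633 CPM against 41556 to 55271 CPM (median 48412). Its 3 wells were close together and below all DMSO wells, at 61.5% of their level (log2 fold change -0.70 ± 0.09 (SE), edgeR adjusted p = 7.38e-06). CALM3, a calmodulin gene outside the list, had 104697, 113257 and 92832 CPM against 115313 to 147609 CPM (median 135698). The groups did not overlap, but the difference was small (log2 fold change -0.36 ± 0.08 (SE), edgeR adjusted p = 0.00603). With RLE scaling the adjusted p was 0.104, and without well 3 it was 0.0804. Calmodulin genes share sequence, and whether the probes read CALM3 alone was not tested. YWHAB, a 14-3-3 adaptor, had 71241, 67149 and 58591 CPM against 48317 to 63216 CPM (median 54721) (adjusted p = 0.0781), and was called with RLE scaling (adjusted p = 0.00372) and with DESeq2 (0.000639).

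In 5 further lists no gene passed an adjusted p of 0.05 with edgeR and TMM scaling: 6 nuclear receptors, 7 of their coregulators, 6 VEGF and hypoxia genes, 3 immediate early transcription factors and 4 genes of eicosanoid, fatty acid and sterol metabolism. Within them NR1H2, an oxysterol receptor, had 1333, 565 and 1381 CPM against 289 to 1199 CPM (median 608) (edgeR adjusted p = 0.0945, and 0.0254 with DESeq2, which called it). PPARG, a fatty acid receptor, had 904, 141 and 479 CPM against 0 to 496 CPM (median 201) (adjusted p = 0.119). PPARGC1A, a coactivator of mitochondrial genes, had 3188, 23795 and 9948 CPM against 2181 to 15351 CPM (median 5102). Well 2 was above every DMSO well and the other 2 wells were inside their range (adjusted p = 0.177). LTA4H, which makes a leukotriene, had 4426, 3954 and 3410 CPM against 1928 to 3697 CPM (median 2887) (adjusted p = 0.0886). It was called with RLE scaling (adjusted p = 0.019) and with DESeq2 (0.00742). ARNT, the partner of hypoxia factors, had 286, 494 and 451 CPM against 37 to 395 CPM (median 150.0) (adjusted p = 0.127). These were 6, 7 and 16 reads against 1 to 12. VEGFA, the main endothelial growth factor, had 2808, 10026 and 6144 CPM against 4730 to 11181 CPM (median 5740). Its 3 wells spread across the DMSO range and below it (log2 fold change 0.02 ± 0.24, SE).

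On either side of the thresholds, WASF1 was just inside an adjusted p of 0.05, and ROCK2 and IGF1R, the receptor of insulin-like growth factor 1, just outside it, both at 0.0518. STAT6 (mean count 5) and PDPK1 (5.05) were just inside the limit on mean count, and POU2F1 (4.74) and PIAS1 (4.68) just outside it. None of these last 4 genes was called.

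Leaving out 1 extract well at a time gave 34 called genes among the 214 without well 1, 22 without well 2 and 27 without well 3. Of the 27 genes called with all wells, 26, 18 and 21 remained called. In all 3 of these fits, 15 genes were called, among them IL6, TXN, HMOX1, CXCL2, EREG and CDKN1A, which rose, and FN1, HSP90B1, CAV1, VCAN, CDKN2A, SDC2, ITGAV and LCN2, which fell. An exact two-sided permutation test over the 969 ways of choosing 3 of the 19 wells gave p = 0.00103 to 0.00413 for the 27 called genes. The lower value is the smallest it can give, and complete separation of the wells fixes it, so it adds nothing for the genes whose groups did not overlap.

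**Figure D4:**
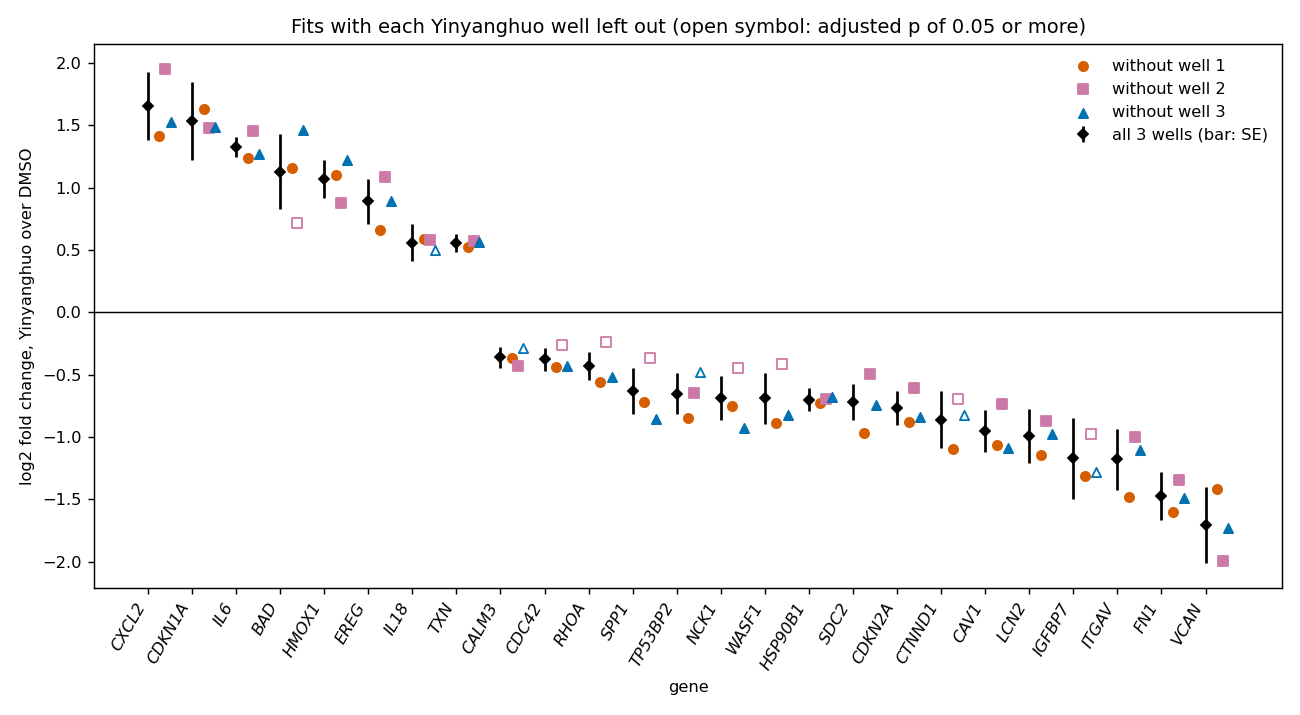
Log2 fold changes (y axis) of 25 of the 27 genes with all 3 extract wells (black, bars show SE) and without 1 of them (coloured symbols, open where the edgeR adjusted p was 0.05 or more). No gene changes sign, and open symbols are most frequent without well 2, with 8.

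Roucongrong (Cistanche deserticola Y.C.Ma) and Gusuibu (Drynaria fortunei (Kunze) J. Sm), at the same concentration and time, were each compared with 16 DMSO wells of their own set, and the difference between the Yinyanghuo effect and each of the other effects was tested in 1 edgeR fit over all 57 wells. The difference from Roucongrong passed an adjusted p of 0.05 for 26 of the 214 genes, and the difference from Gusuibu for 22. Over all 412 genes tested, the counts were 28 (6.8%) and 23 (5.58%). Of 25 genes called for Yinyanghuo and described here, 16 differed from Roucongrong and 15 from Gusuibu. These 25 were chosen for their effect in the same Yinyanghuo and DMSO wells, which favours a called difference. The 16 and 15 are therefore no test of an effect particular to Yinyanghuo. Each extract was assayed in its own set, so the extract and the set cannot be told apart beyond the correction each set's DMSO wells allow.

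IL6 had a log2 fold change of 1.35 ± 0.12 (SE) with Yinyanghuo, -0.04 ± 0.13 with Roucongrong and 0.40 ± 0.13 with Gusuibu. Yinyanghuo exceeded both (edgeR adjusted p = 1.5e-07 and 0.000316). The IL6 level of the DMSO wells was itself 70550 ± 12267 CPM (SD, n = 16) in the Roucongrong set and 40005 ± 3385 CPM in the Yinyanghuo set. FN1 had -1.45 ± 0.16, -0.17 ± 0.14 and 0.32 ± 0.14 in the same order, and was lower with Yinyanghuo than with either (adjusted p = 7.71e-06 and 1.18e-09). CDKN1A, at 1.56 ± 0.28, -0.76 ± 0.33 and -0.04 ± 0.31, was higher with Yinyanghuo (adjusted p = 0.000172 and 0.0132). HSP90B1, at -0.68 ± 0.10, -0.13 ± 0.10 and -0.15 ± 0.10, was lower (adjusted p = 0.00806 and 0.00926).

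HMOX1 stood between the other 2 extracts. Its log2 fold change was 1.88 ± 0.13 with Roucongrong, 1.09 ± 0.15 with Yinyanghuo and 0.20 ± 0.15 with Gusuibu, and the Yinyanghuo effect differed from both (adjusted p = 0.0156 and 0.00695), although without well 3 the adjusted p against Roucongrong was 0.0984. VCAN was lower with Yinyanghuo, -1.69 ± 0.33, than with Gusuibu, 0.77 ± 0.22 (adjusted p = 7.33e-06). Its difference from the value with Roucongrong, -0.98 ± 0.25, was -0.71 ± 0.41 and did not pass (adjusted p = 0.363). EREG, at 0.92 ± 0.16, 0.81 ± 0.16 and 0.55 ± 0.16 with Yinyanghuo, Roucongrong and Gusuibu, showed no called difference between extracts, with differences of 0.11 ± 0.24 and 0.36 ± 0.24.

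The count of differences from Roucongrong depended on well 2. Over all 412 genes, 28 differed from Roucongrong with all wells and 8 without well 2, among them CDKN1A, CXCL2, FN1, HMOX1, HSP90B1, IL18 and IL6. Of these 28, 5 remained whichever extract well was left out, among them IL6, FN1, CDKN1A and HSP90B1. Without well 3 the count was 18. Against Gusuibu the counts were 23 with all wells and 25 without well 2, with 17 genes in common, and 11 of the 23 remained whichever well was left out.

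**Figure D5:**
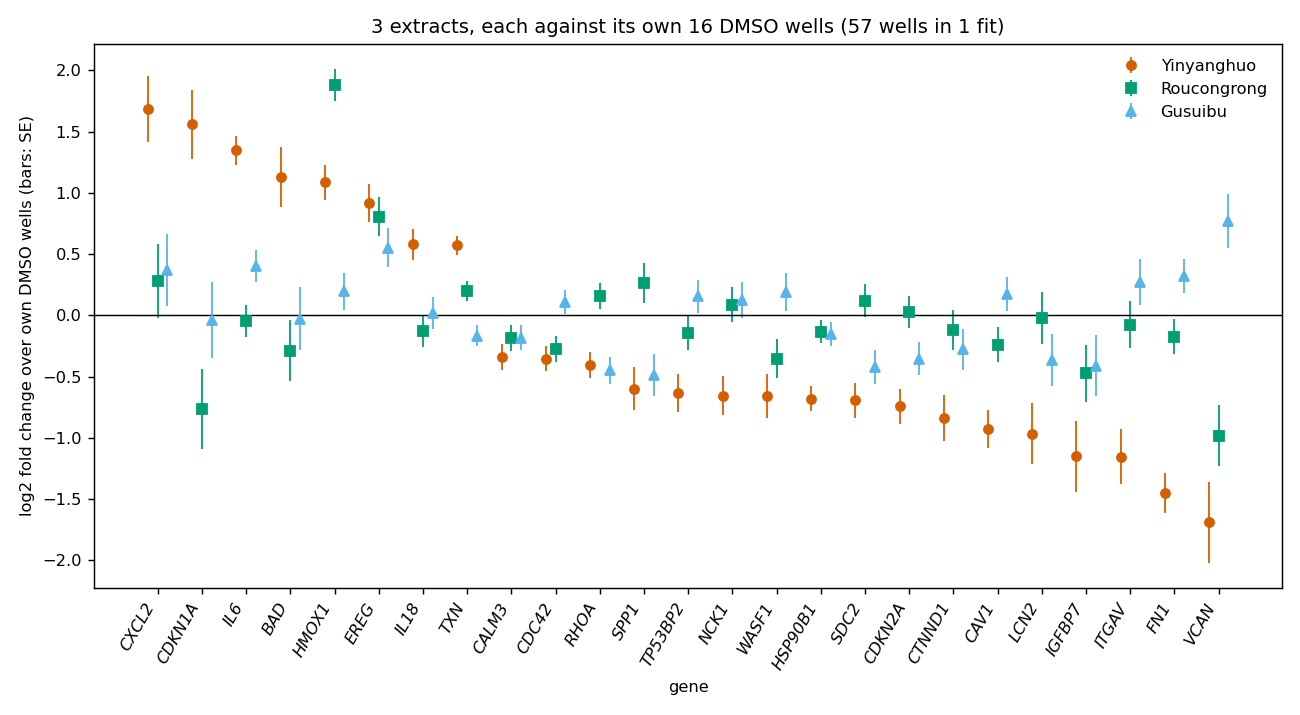
Log2 fold changes (y axis, bars show SE) of 25 of the 27 genes with each of the 3 extracts against its own 16 DMSO wells, from 1 edgeR fit over 57 wells. IL6, CDKN1A and BAD lie higher with Yinyanghuo (orange) than with Roucongrong (green) or Gusuibu (blue), FN1 lies lower, and HMOX1 is highest with Roucongrong.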

How the data were processed

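HK-2 cells in 384-well plates were assayed by RASL-seq. Per the submitters' processing notes, the authors used Bowtie2 2.2.4 and DESeq2 1.22.1. They deposited raw counts per Entrez gene for each well, with no normalization, and all 412 identifiers matched a symbol in RefSeq (GRCh38.p14). Groups and sets were taken from the labels. The genes and lists were chosen with earlier results of these data known. Counts were fitted with edgeR 4.0.16 (R 4.3.3; TMM scaling, quasi-likelihood test, Benjamini-Hochberg adjustment) over the 400 genes with a nonzero total in the 19 wells, and calls used an adjusted p under 0.05. The second rule used an unadjusted p under 0.05 and a fold above 1.5 or below 0.67. CPM values used TMM library sizes, and the permutation test used log2 CPM with a prior count of 2. Differences between extracts were contrasts of a 6-group fit over 57 wells.

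Named genes were up to 30 with the smallest p among those with a mean count of at least 5, an adjusted p under 0.05 and all 3 wells on one side of the DMSO median; up to 4 per list by smallest p; the 10 with the highest DMSO CPM; those next to the thresholds; and the 5 with the smallest p for each difference between extracts. A few others are named with their list. Results for 2 called genes are not reported here, and they stay in counts over all genes but not in the lists or figures by gene. Depth was 13581 to 40863 reads per well, and 3 reads correspond to 73.4 to 221 CPM. Alternatives were RLE scaling, total counts, DESeq2 1.42.0, 2 filters on low counts, leaving out each extract well, a replicate block and all 57 wells in 1 fit. Wells that share a replicate number did not deviate together (r = 0.38, -0.43 and -0.09), so numbers were not taken as pairs. The fit was tested on simulated data, and figures were drawn with matplotlib 3.10.9.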

Additional observations from a re-analysis of the deposited data

Results flagged for a closer look

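The effect of Yinyanghuo differed from that of another extract for 30 genes named in the text with a mean count of at least 5, by the test of the difference in the edgeR fit over 57 wells (adjusted p under 0.05). Each value is the log2 fold change with Yinyanghuo minus that with the other extract. Against Roucongrong the difference was positive for CDKN1A (2.32), BAD (1.42), CXCL2 (1.40), IL6 (1.39), SOD2 (1.20), IL18 (0.71), LAMB1 (0.67) and TXN (0.38). It was negative for HSP90B1 (-0.55), RHOA (-0.57), CAV1 (-0.69), NCK1 (-0.74), VIM (-0.75), CDKN2A (-0.77), HMOX1 (-0.80), SDC2 (-0.81), SPP1 (-0.86), ITGAV (-1.08), LAMC1 (-1.19) and FN1 (-1.28). Of these 20 differences, 4 passed whichever extract well was left out: CDKN1A, FN1, HSP90B1 and IL6. Without well 2, 13 were lost: BAD, CAV1, CDKN2A, ITGAV, LAMB1, LAMC1, NCK1, RHOA, SDC2, SOD2, SPP1, TXN and VIM. Without well 1, CXCL2 and TXN were lost, and without well 3, CXCL2, HMOX1, IL18, ITGAV, LAMB1, LAMC1, SOD2 and TXN.

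Against Gusuibu the difference was positive for ARNT (2.80), CDKN1A (1.60), CXCL2 (1.31), BAD (1.16), IL6 (0.94), HMOX1 (0.89), LTA4H (0.86), TXN (0.74) and YWHAB (0.49). It was negative for CDC42 (-0.46), HSP90B1 (-0.53), NCK1 (-0.78), TP53BP2 (-0.79), WASF1 (-0.85), ROCK2 (-0.88), EGFR (-0.95), CAV1 (-1.10), ITGAV (-1.43), FN1 (-1.77), TXNIP (-1.91) and VCAN (-2.46). Of these 21 differences, 11 passed whichever extract well was left out: ARNT, CAV1, CDKN1A, FN1, HMOX1, HSP90B1, IL6, ITGAV, LTA4H, TXN and VCAN. ARNT had only 6, 7 and 16 reads in the Yinyanghuo wells. Without well 2, BAD, CDC42, EGFR, NCK1, ROCK2 and WASF1 were lost, without well 1, BAD, CXCL2, ROCK2, TXNIP and YWHAB, and without well 3, CXCL2, TP53BP2 and TXNIP. RASA1, below that mean count, differed from both extracts (adjusted p = 0.0417 and 0.0233), and no fold is given because its Yinyanghuo wells held no read. Genes named for their Yinyanghuo effect in the same wells are favoured in these counts. Extract and set cannot be told apart in these differences, and no cause was tested.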

How the results depend on the processing

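With a replicate block, 2 genes were called of the 30 over all genes tested (also 2 of the 27 among the 214), IL6 and FN1, and the looser rule called 37 instead of 60. This block leaves only the 3 DMSO wells numbered 1 to 3 to set against the extract wells, since each other DMSO well has a number of its own, and the wells that share a number did not deviate together. Leaving out each extract well gave 8 to 32 genes that differed from Roucongrong and 18 to 25 from Gusuibu, 23 to 37 genes called for Yinyanghuo over all genes tested, and 30 genes with every remaining well outside the DMSO range in each of the 3 cases, against 17 with all wells. RLE scaling, total counts, DESeq2, the 2 filters and the fit over 57 wells gave 31, 36, 33, 37, 40 and 42 called genes of those tested. Under RLE scaling, DESeq2, the filter and the block, 26 to 34 genes differed from Roucongrong and 22 to 26 from Gusuibu. The share called higher was 33.3% with edgeR and TMM scaling and 42.4% with DESeq2, and among the 214 genes it was 29.6% and 42.4%.

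Of the 25 called genes described, RLE scaling and DESeq2 each lost 1, CALM3. Without well 2, 8 were lost, without well 3, 5, and without well 1, 0. Of the named genes not called, RLE scaling gained 3 (LTA4H, PPP2R5C and YWHAB), DESeq2 also NR1H2 and VIM, total counts 5, the 2 filters 7 and 8, the fit over 57 wells 8, and leaving out an extract well 2 to 3. No gene called for Yinyanghuo changed sign under any alternative. Among the genes that were not called, the log2 fold change of CREB1 (-0.028 in the reported fit) changed sign with RLE scaling (0.062), DESeq2 (0.062), the filter at a mean count of 5 (0.038), filterByExpr (0.033) and the replicate block (0.063). With the block, VEGFA (-0.097), PPARD (-0.27), PIAS1 (0.24) and POU2F1 (0.88) also did. Leaving out each extract well moved CREB1 from -0.23 to 0.089, KDR from -0.39 to 0.88, AHR from -1.93 to 0.053, VEGFA from -0.44 to 0.38, NR3C1 from -0.41 to 1.33, PPARD from -0.052 to 0.50, CYP2S1 from -0.051 to 1.02, STAT6 from -1.42 to 0.16 and POU2F1 from -0.43 to 0.024. The lowest value came without well 2 for KDR, VEGFA, NR3C1, CYP2S1, STAT6 and POU2F1, and without well 1 for the other 3. The causes were not tested. Of the 186 genes tested under a mean count of 5, 17 had an unadjusted p under 0.05 and 3 were called.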
